A study of Mus musculus with 10 samples.

Results

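Slpi encodes a secreted protease inhibitor, and the study placed 2 different hairpins against its transcript into the same clone of mouse mammary cancer cells. Described here is the comparison of those hairpins with each other: the 2 libraries labelled shSlpi-1 (A and B) against the 2 labelled shSlpi-2 (A and B), which are 4 of the 10 libraries of the series. The members were taken by the hairpin named in each label, though earlier results of these data were known when they were chosen. All 10 libraries came from clone 4T1-T, a population grown from a single cell of the 4T1 mouse mammary cancer line, in culture and after infection with a hairpin. Cells with a hairpin to Renilla luciferase (shRenilla, 2 libraries) were the control, and 4 libraries with hairpins to Serpine2 are used only as a range for other infected cells of the clone. No untreated clone enters this comparison, so infection with a hairpin is shared by every group. No label says that A and B were separate cultures, and p-values therefore measure how far these libraries spread, which can be technical alone.

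Slpi, secretory leukocyte protease inhibitor, blocks neutrophil elastase and related serine proteases outside the cell, and it is also known to restrain NF-kB signalling in macrophages. A short hairpin RNA is processed by the cell into a small guide RNA that is loaded into an Argonaute protein and leads it to matching transcripts, which are then cut or destabilised. Hairpins against one transcript differ in how far they lower it. Each can also lower unrelated transcripts that match the guide's seed.

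Slpi (chromosome 2, 164354070 to 164389095, minus strand, GRCm38) was lowered more deeply by shSlpi-2 than by shSlpi-1. Values are normalized reads per gene, on the scale of the submitters' table after its transformation was undone. Slpi stood at 1189 and 1313 in the shRenilla libraries, at 145 and 147 with shSlpi-1 and at 60.9 and 75.8 with shSlpi-2. The 3 groups did not overlap. Set against the control mean, Slpi was 8.58-fold lower with shSlpi-1 and 18.3-fold lower with shSlpi-2, and it was 2.14-fold lower with shSlpi-2 than with shSlpi-1 (log2 difference -1.09, SE 0.17, adjusted p = 0.00905, limma with Benjamini-Hochberg adjustment; 0.120 when genes with low values were kept in the test). The hairpins' libraries stood below the lowest of the 4 Serpine2 hairpin libraries, which ranged from 326 to 1218. Serpine2, the other inhibitor that the study targeted, was 3256 and 3145 with shRenilla, 1342 and 1331 with shSlpi-1 and 1553 and 1731 with shSlpi-2 (log2 difference 0.30, SE 0.08, adjusted p = 0.0445). Its higher level with shSlpi-2 was not called without shSlpi-1 library A (adjusted p = 0.185), without shSlpi-1 library B (0.270), under quantile normalization (0.0565) or when scaled to reads outside structural RNAs (0.0673).

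The hairpin sequences are not among the sources used here, so the sequences shown are of the cells' own genes. One abundant transcript that fell with shSlpi-2 was 2610203C20Rik, the long noncoding RNA that RefSeq names Mir100hg (GRCm38.p6, chromosome 9, 41376526 to 41615185). By coordinates, 3 microRNA hairpins of the RefSeq table lie within it. Their mature 5′ arms are printed because their host transcript is described below, with the seed, bases 2 to 8, in capitals.
miR-100-5p: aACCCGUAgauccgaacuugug
let-7a-5p: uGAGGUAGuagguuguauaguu
miR-125b-5p: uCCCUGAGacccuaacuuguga
These start at positions 41531437, 41536732 and 41581940 of chromosome 9, on the plus strand, and no seed is shared among them. The mature microRNAs were not measured, since these libraries hold fragments of long RNA.

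Mmp13 and Cldn4 were among the 12 largest rises, and the 250 bases before their start sites are shown because each holds the AP-1 motif TGANTCA, printed in capitals. AP-1 is the transcription factor of Fos and Jun proteins. The motif is its own reverse complement, so 1 search covers both strands. Both windows are from RefSeq (GRCm38.p6), written 5′ to 3′ on the strand of the gene.
Mmp13 (chr9:7272264-7272513, plus strand): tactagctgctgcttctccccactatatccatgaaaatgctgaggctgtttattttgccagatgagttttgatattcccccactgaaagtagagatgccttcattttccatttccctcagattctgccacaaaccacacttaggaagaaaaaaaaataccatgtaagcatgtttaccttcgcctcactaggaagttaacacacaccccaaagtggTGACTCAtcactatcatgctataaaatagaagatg
Cldn4 (chr5:134946935-134947184, minus strand): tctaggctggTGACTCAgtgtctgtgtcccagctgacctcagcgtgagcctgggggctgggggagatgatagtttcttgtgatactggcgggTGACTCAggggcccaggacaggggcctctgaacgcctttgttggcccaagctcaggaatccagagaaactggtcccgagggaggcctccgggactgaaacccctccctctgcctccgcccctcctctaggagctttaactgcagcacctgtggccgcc
Mmp13 had 1 match, 35 bases before the start, and Cldn4 had 2, at 240 and 158 bases. Of the 12 largest rises, 8 had a promoter in the table and 3 of these held the motif (Mmp13, Cldn4 and 1 of the Dmd promoters). Of the 12 largest falls, 8 had a promoter and 1 held it (Ypel4). Of all genes with a window, 7.82% held it, and of all 32851 windows of this length 6.75%, against 3 of 10 windows of the rises (30%) and 1 of 8 of the falls (12.5%). These are matches of letters and no measure of binding.

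The shSlpi-2 libraries stood apart from the other 8 in their read composition. Libraries held 15877431 to 24026620 reads assigned to genes, with 17920147 and 17398082 in shSlpi-1 and 20192685 and 20288389 in shSlpi-2. Rn45s, the ribosomal RNA precursor, took 6.88% and 6.91% of reads in shSlpi-2, 1.96% and 1.89% in shSlpi-1 and 1.00% and 1.21% in shRenilla. Thinned to 15877431 reads each, shSlpi-2 libraries had a read in 19452 and 19774 gene entries, shSlpi-1 in 18092 and 17694 and shRenilla in 15766 and 15963. Unthinned, these were 19938 and 20253, 18366 and 17895, and 15887 and 16040. Olfactory and vomeronasal receptor entries (1457, a family picked after seeing the values, which a mammary cell is not known to use) held 78.9 and 92.4 RPM (reads scaled to library size) in shSlpi-2, 45.7 and 40.2 in shSlpi-1 and 23.7 and 24.9 in shRenilla. In the Serpine2 hairpin libraries these entries held 39.3 and 39.4 RPM (shSerpine2-1) and 13.6 and 14.3 (shSerpine2-2). The 2 shSlpi-2 libraries also differed most from each other, with a chi-square of 10.9 for each degree of freedom between their reads, against 2.76 in shSlpi-1. The part of this composition in the differences between hairpins was not tested.

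**Figure D1:**
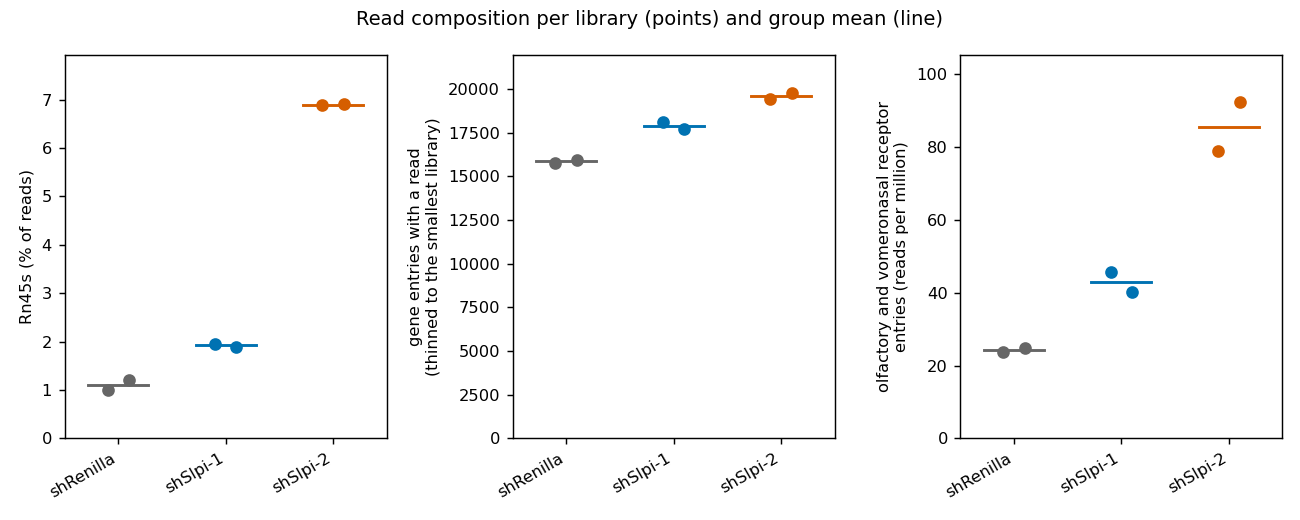
Read composition in the 6 libraries compared here (points) with the group mean (line): percent of reads in Rn45s, gene entries with at least 1 read after thinning to 15877431 reads, and RPM in olfactory and vomeronasal receptor entries. In each panel both shSlpi-2 libraries lie above both shSlpi-1 libraries, which lie above both shRenilla libraries.

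Markers of the labelled mammary epithelial line were present in all 6 libraries, beside abundant mesenchymal transcripts. Epcam ran from 1300.1 to 2159 normalized reads, Cdh1 (E-cadherin) from 9155 to 12918 and Krt8 from 3172 to 4405. The mesenchymal genes Vim (60930 to 69989) and Fn1 (45323 to 53765) were higher in the same libraries. Several defining markers of other cells were low, with Ptprc (the pan-leukocyte marker) at 7.06 or less, Pecam1 at 31.2 or less and Cdh5 at 16.1 or less, both endothelial, and Dcn and Lum, of fibroblasts, at 6.61 or less. Apart from Dcn, the low defining markers of all 3 cell types had most reads in shSlpi-2. Summed over both libraries, the reads in shRenilla, shSlpi-1 and shSlpi-2 were 8, 16 and 43 for Pecam1 and 1, 10 and 28 for Itgam. For the fibroblast markers they were 10, 14 and 37 for Col1a1, 0, 1 and 2 for Lum and 7, 1 and 1 for Dcn. Markers at higher levels in all 6 libraries were the endothelial receptors Flt1 (784 to 966 normalized reads) and Eng (621 to 730.0) and the fibroblast receptor Pdgfra (436 to 896). Of the listed markers, 3 of 19 leukocyte genes, 6 of 16 endothelial genes and 3 of 13 fibroblast genes passed the filter on low values, and among these 1 was called, the endothelial receptor gene Tie1 (22.2 and 14.6 against 36.7 and 64.4; log2 difference 1.39, SE 0.35, adjusted p = 0.0376; 0.112 without shSlpi-1 library B and 0.0635 without shSlpi-2 library B). Summed over each list, leukocyte markers ran from 310.1 to 319.6 in shSlpi-1 and from 321 to 386 in shSlpi-2, endothelial markers from 1524 to 1627 and from 1624 to 1749, and fibroblast markers from 647 to 687 and from 531 to 680.5. In such bulk samples fewer cells of a type and less RNA per cell cannot be told apart, and the part of these markers in the results was not tested.

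Between the hairpins 1311 of 12491 tested genes were called (10.5%), 617 higher with shSlpi-2 (4.94%) and 694 lower (5.56%). Called means a limma adjusted p under 0.05, and tested means a mean of at least 10 normalized reads over the 4 libraries. Most differences were small: the median of the called genes was 1.35-fold, and 93 differed by at least 1 on the log2 scale, 50 higher and 43 lower. Of those 93, 58 had a mean under 50 normalized reads (37 higher and 21 lower). The libraries of the hairpins did not overlap for any of the 1311, nor for 58.2% of all genes tested. When normalized to the reads outside structural RNAs instead, the split of calls was 469 higher and 824 lower. The count moved with single libraries, to 672 without shSlpi-1 library A, 391 without shSlpi-1 library B, 3678 without shSlpi-2 library A and 3057 without shSlpi-2 library B; without a low filter limma called 0 genes, with 4913 at an unadjusted p under 0.05.

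**Figure D2:**
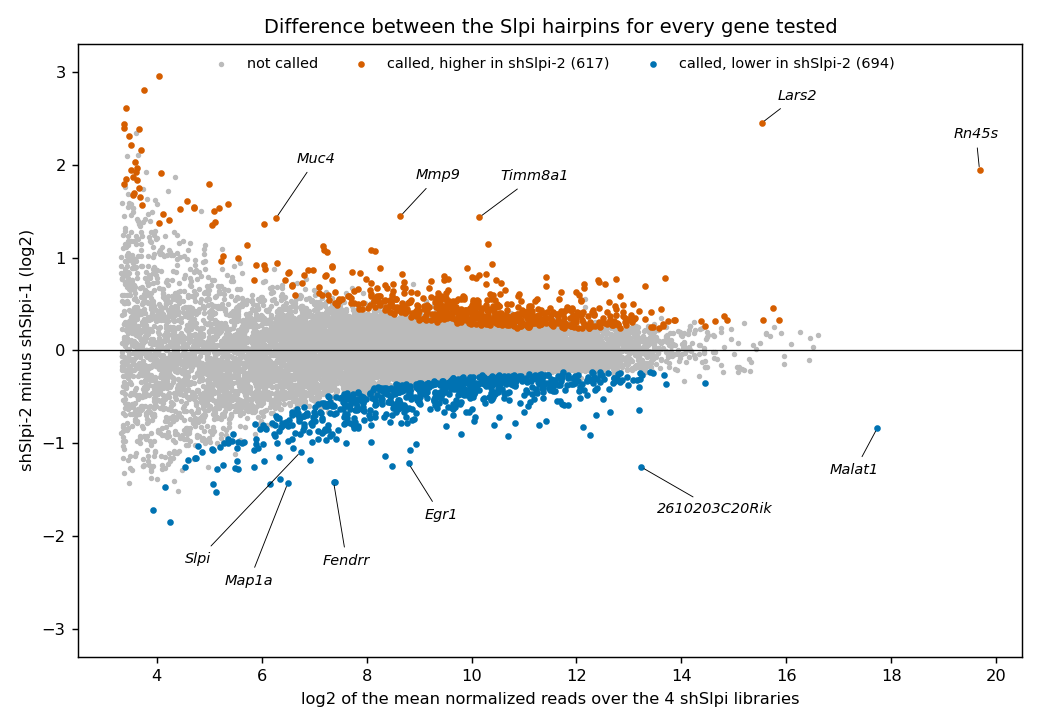
Log2 difference (shSlpi-2 minus shSlpi-1) against the log2 mean of normalized reads over the 4 libraries, 1 point per tested gene, with 617 genes called higher in orange, 694 called lower in blue and the rest in grey. Most called genes lie within 1 of 0, while Lars2 (2.45) and Rn45s (1.94) lie far above and Map1a (-1.43) and Fendrr (-1.41) far below.

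Against the control, 4027 of 12421 genes were called for shSlpi-2 against shRenilla (32.4%) and 3023 of 12329 for shSlpi-1 against shRenilla (24.5%). Without shRenilla library A the first count was 2151 and without B 2073, and without B the second was 1889. These comparisons share their control libraries with each other and their hairpin libraries with the comparison of hairpins, so they are set side by side and not correlated. Of the 1311 genes called between hairpins, 720 were called against shRenilla for shSlpi-2 and not for shSlpi-1, and 135 the other way. For 299 both hairpins were called in 1 direction, for 38 in opposite directions and for 97 neither was called. In the remaining 22, shSlpi-2 was called and shSlpi-1 was not tested against the control. A call for 1 hairpin and not for the other is no test of their difference, which is the comparison of hairpins itself.

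The shSlpi-1 mean was nearer to the shRenilla mean than the shSlpi-2 mean was in 1159 of the 1311 genes (88.4%), and in 68.9% of all genes tested. The 3 group means ran in the order shRenilla, shSlpi-1, shSlpi-2, the order of falling Slpi, for 763 of the called genes (58.2%) and for 52.8% of all genes tested. In 515 (39.3%, against 26.4% of all tested) the control lay between the hairpins, and in 33 (2.52%, against 20.7%) beyond shSlpi-2. Both shSlpi-2 libraries stood above all 8 other libraries of the series in 513 of the 617 higher genes (83.1%) and below all 8 in 514 of the 694 lower genes (74.1%). For all tested genes these shares were 12.5% and 13.6%. By the same count shSlpi-1 stood below all 8 others in 79 of the 617 (12.8%) and above all 8 in 123 of the 694 (17.7%). The choice of genes that differ between hairpins itself raises these shares, and they carry no test.

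**Figure D3:**
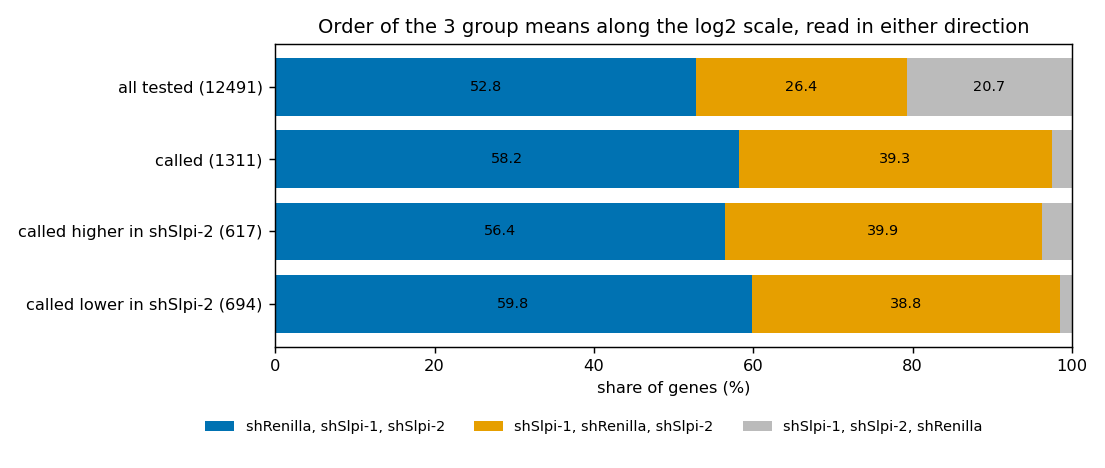
Share of genes (%) by the order of the 3 group means on the log2 scale, for all 12491 genes tested, the 1311 called between hairpins and their higher and lower parts. The order with the control at one end and shSlpi-2 at the other (blue) held 58.2% of called genes, and the order with the control between the hairpins (orange) held 39.3%.

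The proteases Mmp9, Mmp13, Adam12 and St14 were higher with shSlpi-2, while their list was called at a share near that of all genes. Mmp9 (chromosome 2, 164940780 to 164955850), the gelatinase B gene, read 197 and 232 with shSlpi-1 and 619.6 and 548 with shSlpi-2. Its control values, 335 and 329, lay between the hairpins, and the rise between them was 2.72-fold (log2 difference 1.44, SE 0.12, adjusted p = 9.14e-04). Mmp9 with shSlpi-1 was below the control (log2 -0.64, adjusted p = 3.22e-05) and with shSlpi-2 above it (log2 0.81, adjusted p = 1.93e-04). Mmp13, a collagenase, read 44.4 and 22.9 with shSlpi-1 and 69.6 and 72.9 with shSlpi-2, beside 73.7 and 85.9 in shRenilla (log2 difference 1.13, SE 0.30, adjusted p = 0.0453). For Mmp13 the lower group was shSlpi-1, and the call ended without shSlpi-1 library B (log2 0.67, adjusted p = 0.288) and when scaled to reads outside structural RNAs (0.0557). Adam12, a membrane-bound metalloprotease, was 2128 and 2054 against 3277 and 3489 (log2 difference 0.69, SE 0.07, adjusted p = 0.00132), and St14, the matriptase gene, 817 and 779 against 1133 and 1024 (log2 0.43, adjusted p = 0.0171; 0.107 without shSlpi-1 library B). Of 28 tested extracellular protease genes, 4 rose and 0 fell (14.3% called, against 10.5% of all genes), with a median of 0.10 against 0.00 over all genes tested. The counts were 4 higher and 0 lower without shSlpi-1 library A, 2 and 0 without shSlpi-1 B, 7 and 1 without shSlpi-2 A and 8 and 3 without shSlpi-2 B. The 10 neutrophil proteases and granule genes, among them the elastase that Slpi protein blocks, all stayed under the low filter.

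Inhibitors of proteases moved both ways. Of 17 tested, 3 rose and 1 fell, with a median of 0.14 (23.5% called, against 10.5% of all genes). The counts were 2 higher and 1 lower without shSlpi-1 library A, 1 and 1 without shSlpi-1 B, 10 and 1 without shSlpi-2 A and 3 and 2 without shSlpi-2 B. Serpinh1, the collagen chaperone, read 1262 and 1203 with shSlpi-1 and 1778 and 2113 with shSlpi-2 (log2 difference 0.65, SE 0.09, adjusted p = 0.006), and Reck, a membrane-anchored inhibitor of metalloproteases, fell from 239 and 236 to 134 and 153 (log2 difference -0.72, SE 0.13, adjusted p = 0.0137). Reck was 348 and 333 in shRenilla, so its level followed the order of Slpi. Serpinb6b rose by log2 0.53 (adjusted p = 0.0391), a call that ended without shSlpi-1 library A (0.0698) or B (0.270) and when scaled to reads outside structural RNAs (0.0511). Among 13 cathepsins and lysosomal proteases, Ctsz alone was called (7.69%, against 10.5% of all genes). Ctsz read 1397 and 1472 against 1881 and 1821 (log2 0.37, adjusted p = 0.0169). Its call was lost without shSlpi-1 library A (log2 0.33) or B (0.41).

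Among called genes with a mean of at least 50 normalized reads, Map1a and Fendrr were, after Shcbp1l, the largest falls. Map1a (chromosome 2, 121289600 to 121310832) encodes a neuronal microtubule-associated protein. It read 137 and 137 in shRenilla, 118 and 147 with shSlpi-1 and 45.4 and 51.1 with shSlpi-2 (log2 difference -1.43, SE 0.19, adjusted p = 0.00546). The Serpine2 hairpin libraries held 138 to 184, so both shSlpi-2 libraries were the lowest of the 10. The same held for 74.1% of genes called lower and 13.6% of all tested. Fendrr (chromosome 8, 121054882 to 121083110, minus strand) is a long noncoding RNA transcribed next to Foxf1. It read 151 and 138 in shRenilla, 234 and 248 with shSlpi-1 and 84.1 and 95.6 with shSlpi-2 (log2 difference -1.41, SE 0.14, adjusted p = 0.00132). Fendrr was thus above the control with shSlpi-1 (log2 0.74, adjusted p = 2.58e-05) and below it with shSlpi-2 (log2 -0.68, adjusted p = 0.00833). Map1a, Fendrr and Mmp9 kept their calls when any 1 of the 4 libraries was left out. Of 41 tested genes for microtubules and motors, 2 rose and 1 fell, 7.32% called against 10.5% of all genes. The rises were Map7d1 (0.50) and Tuba1a (0.35), and the fall was Map1a. Tuba1a was not called without shSlpi-1 library A (log2 0.37) or B (0.34). The counts were 1 higher and 1 lower without shSlpi-1 library A, 1 and 1 without shSlpi-1 B, 8 and 4 without shSlpi-2 A and 6 and 1 without shSlpi-2 B.

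**Figure D4:**
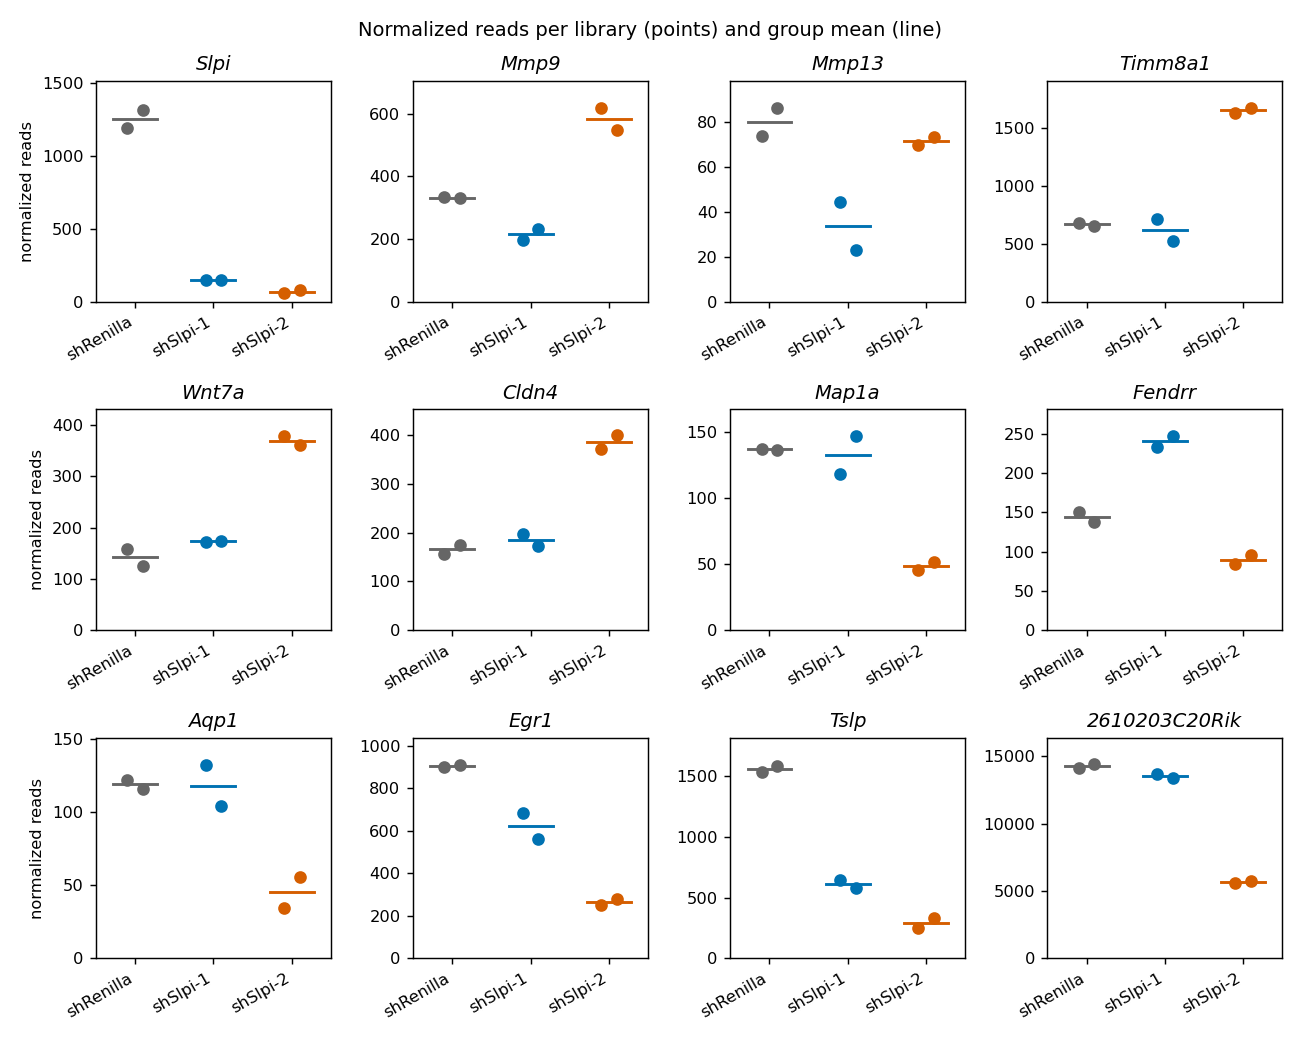
Normalized reads of 12 genes in the shRenilla, shSlpi-1 and shSlpi-2 libraries (points, 2 per group; lines are group means; each axis starts at 0). Slpi, Egr1 and Tslp step down from control to shSlpi-1 to shSlpi-2, Mmp9 and Fendrr have the control between the hairpins, and Map1a, Aqp1, Timm8a1 and 2610203C20Rik differ from the control mainly in shSlpi-2.

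Among the other large rises, several genes had like levels in shRenilla and shSlpi-1 and stood apart in shSlpi-2. Timm8a1, a chaperone of the mitochondrial intermembrane space, read 681 and 651 in shRenilla, 716 and 520.2 with shSlpi-1 and 1626 and 1672 with shSlpi-2 (log2 difference 1.43, SE 0.13, adjusted p = 0.001). Cldn4, a tight junction claudin, read 157 and 175, 197 and 172 and 372 and 399.6 in the same order (log2 difference 1.07, SE 0.12, adjusted p = 0.00243). Wnt7a, a secreted Wnt ligand, read 159 and 125, 172 and 175 and 379 and 361 (log2 difference 1.09, SE 0.11, adjusted p = 0.00142). In these 3 genes both shSlpi-2 libraries stood above every other library, as in 83.1% of genes called higher and 12.5% of all tested. Choosing genes by their difference between hairpins raises that share. Slco5a1, an organic anion transporter family gene, rose by 1.08, from 91.7 and 93.6 to 204 and 190.3. Dcun1d5, which promotes attachment of Nedd8 to cullins, read 951 and 656 with shSlpi-1, below 1094 and 1088 in shRenilla, and 1824 and 1682 with shSlpi-2 (log2 difference 1.15, SE 0.15, adjusted p = 0.00419).

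Muc4 and Dmd were low genes. Muc4, a membrane mucin, read 3.16 and 11.02 in shRenilla, 52.4 and 32.3 with shSlpi-1 and 111 and 113 with shSlpi-2 (log2 difference 1.42, SE 0.24, adjusted p = 0.011), rising in the order of falling Slpi. Its call ended when all 10 libraries were fitted with a weight per group (adjusted p = 0.0820). Dmd, the dystrophin gene, read 33.3 and 39.5 with shSlpi-1 and 95.7 and 93.7 with shSlpi-2, on either side of 55.8 and 66.1 in shRenilla (log2 difference 1.36, SE 0.21, adjusted p = 0.00773). Among called genes with a mean of at least 50 normalized reads, the largest rises were in Lars2 and Rn45s, both very abundant entries, whose values per library, like those of Krt14, Spp1 and Serpine2, were singled out after they were seen. Lars2, annotated as the mitochondrial leucyl-tRNA synthetase, read 5977 and 7201 in shRenilla, 15038 and 14189 with shSlpi-1 and 73541 and 86522 with shSlpi-2 (log2 2.45), and Rn45s rose by 1.94. The groups ranked alike for Lars2 and for the Rn45s share of reads, and the entry Mir5109 (81.7 and 97.8 against 183 and 211, log2 1.13) was also highest in shSlpi-2. Reads of multicopy RNA such as Rn45s can be shared among near-identical copies. Under quantile normalization Rn45s could show no difference (0.00), since it held the highest level in each of the 4 libraries.

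Falls with shSlpi-2 included signalling and secreted genes that were already lower with shSlpi-1. Egr1, an immediate early transcription factor downstream of ERK, read 902 and 910.1 in shRenilla, 686 and 562 with shSlpi-1 and 252 and 281 with shSlpi-2 (log2 difference -1.22, SE 0.12, adjusted p = 0.00132). Tslp, an epithelial cytokine, read 1532 and 1582, 647 and 583 and 252 and 334 (log2 difference -1.08, SE 0.14, adjusted p = 0.00422). Neither gene's groups overlapped. Each step was in the order of Slpi, which the group means of 52.8% of all genes tested also followed. Against the control, Tslp differed by log2 -1.34 with shSlpi-1 and -2.42 with shSlpi-2, and Egr1 by -0.55 and -1.76.

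Other falls were found against both shRenilla and shSlpi-1. Aqp1, a water channel, read 122 and 116 in shRenilla, 132 and 104 with shSlpi-1 and 34.8 and 55.9 with shSlpi-2 (log2 difference -1.39, SE 0.25, adjusted p = 0.013). Ttc9 read 474 and 448, 499 and 503 and 204 and 217 (log2 difference -1.25, SE 0.10, adjusted p = 9.14e-04), and Plgrkt, a plasminogen receptor, 436 and 426, 449 and 446 and 165 and 248 (log2 difference -1.14, SE 0.17, adjusted p = 0.00764). Their shRenilla and shSlpi-1 values lay close together, while both shSlpi-2 libraries were lower. Shcbp1l read 85.7 and 126 against 37.7 and 37.9 (log2 -1.44), and the pseudogene Sycp1-ps1, whose reads cannot be parted from those of near copies, 167 and 171 against 69.6 and 78.6 (log2 -1.18). Slmo1 (81.7 and 81.2 against 27.1 and 41.7) and Ypel4 (93.8 and 87.4 against 52.2 and 29.4) changed by log2 -1.25 and -1.19 from levels under 100 normalized reads.

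2610203C20Rik, the host transcript of the microRNAs printed above, was left out of the naming rule by its clone name and was singled out after its values were seen. It read 14110.0 and 14429 in shRenilla, 13668 and 13400.5 with shSlpi-1 and 5583 and 5759 with shSlpi-2 (log2 difference -1.25, SE 0.06, adjusted p = 2.84e-05). The Serpine2 hairpin libraries held 7325 to 10839, so levels below the control were not limited to shSlpi-2. Both shSlpi-2 libraries were the lowest of the 10, as in 74.1% of genes called lower and 13.6% of all tested. Other nuclear noncoding RNAs fell as well. Malat1 read 272415 and 286664 with shSlpi-1 and 160839 and 152298 with shSlpi-2 (log2 difference -0.84, SE 0.09, adjusted p = 0.00168). Its shRenilla values were 265745 and 283104. Under quantile normalization Malat1 could show no difference (0.00), since it ranked next below Rn45s in each of the 4 libraries. Neat1, the scaffold of paraspeckles, was 3577 and 3647 in shRenilla, 5624 and 5705 with shSlpi-1 and 3500.0 and 2934 with shSlpi-2 (log2 difference -0.82, SE 0.09, adjusted p = 0.00142), and it was called against the control for shSlpi-1 (adjusted p = 1.83e-13) and not for shSlpi-2 (adjusted p = 0.142). Of 82 tested structural and nuclear noncoding RNAs, 5 rose and 9 fell, with a median of -0.34 (17.1% called, against 10.5% of all genes). The counts were 6 higher and 3 lower without shSlpi-1 library A, 4 and 3 without shSlpi-1 B, 10 and 20 without shSlpi-2 A and 6 and 15 without shSlpi-2 B.

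Most epithelial junction and identity genes that were called were higher with shSlpi-2. Of 45 tested, 11 rose and 0 fell, 24.4% called against 10.5% of all genes, and the median was 0.23. Itgb6, the epithelial integrin beta chain, read 133 and 138 in shRenilla, 238 and 251 with shSlpi-1 and 372 and 364 with shSlpi-2 (log2 difference 0.59, SE 0.11, adjusted p = 0.0134). Krt14, a basal keratin, read 115 and 120.1, 347 and 284 and 544 and 471 (log2 difference 0.69, SE 0.13, adjusted p = 0.0136). Krt19, a luminal keratin, read 557 and 579.6, 659 and 566 and 859 and 877 (log2 difference 0.51, SE 0.10, adjusted p = 0.0153), with the call lost without shSlpi-1 library B (adjusted p = 0.128). Against shRenilla 22 of 45 rose and 3 fell for shSlpi-1, and 30 of 44 rose and 1 fell for shSlpi-2. The counts between hairpins were 6 higher and 0 lower without shSlpi-1 library A, 4 and 0 without shSlpi-1 B, 17 and 1 without shSlpi-2 A and 16 and 3 without shSlpi-2 B.

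Mesenchymal genes held 1 rise and 3 falls among 26 tested (15.4% called, against 10.5% of all genes), with a median of -0.05. The majority of falls did not hold when an shSlpi-2 library was left out: the counts were 2 higher and 3 lower without shSlpi-1 library A, 1 and 2 without shSlpi-1 B, 5 and 4 without shSlpi-2 A and 6 and 5 without shSlpi-2 B. Spp1, the osteopontin gene, read 23343 and 25627 in shRenilla, 11468 and 11261 with shSlpi-1 and 7154 and 7443 with shSlpi-2 (log2 difference -0.64, SE 0.06, adjusted p = 0.00129), a further fall in the order of Slpi. Col6a1, a collagen VI chain, went from 485 and 451 to 325 and 284 (log2 -0.62, adjusted p = 0.0123), and Mgp, matrix Gla protein, from 61.5 and 63.5 to 17.4 and 36.9 (log2 -1.26, adjusted p = 0.044; 0.0703 without shSlpi-1 library B and 0.0588 under quantile normalization). Tnc, tenascin C, rose from 911 and 935 to 1392 and 1229 (log2 difference 0.50, SE 0.09, adjusted p = 0.0108), with the control between, at 1099.9 and 1117. The abundant mesenchymal genes Vim and Fn1 were not called.

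Genes of the basement membrane and matrix had no common direction as a list, though Lamb3 and Fbln2 rose. Lamb3, a chain of laminin 332, read 912 and 873 with shSlpi-1 and 1587 and 1566 with shSlpi-2 beside 870.2 and 833 in shRenilla (log2 difference 0.82, SE 0.07, adjusted p = 0.001). Fbln2, a fibulin, read 4052 and 4010.1 and 7027 and 6639.6 beside 4228 and 3902 (log2 difference 0.76, SE 0.06, adjusted p = 9.14e-04). Sdc1 (syndecan 1) rose by 0.42, and Col4a5, a collagen IV chain, fell by 0.63 on the log2 scale. For each of these the control and shSlpi-1 lay close together and shSlpi-2 apart. In the list of 28 genes, 4 rose and 1 fell (17.9% called, against 10.5% of all genes), with 4 higher and 1 lower without shSlpi-1 library A, 4 and 1 without shSlpi-1 B, 6 and 3 without shSlpi-2 A and 5 and 5 without shSlpi-2 B. The median of 0.01 was below 0 under quantile normalization and under scaling to reads outside structural RNAs. Of 17 integrin chains, 3 rose and 1 fell (23.5% called, median 0.07): Itga1, a collagen receptor chain, fell from 241 and 236 to 159 and 134 (log2 difference -0.71, SE 0.14, adjusted p = 0.0169), while Itga2 (0.31) and Itgb5 (0.42) rose and were not called without either shSlpi-1 library (adjusted p from 0.103 to 0.218). The integrin counts were 1 higher and 1 lower without shSlpi-1 library A, 1 and 1 without shSlpi-1 B, 6 and 2 without shSlpi-2 A and 4 and 1 without shSlpi-2 B.

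Genes of vessel growth and of Notch signalling, which bear on the vascular question named in the series title, differed in both directions. Of 35 angiogenic and vascular genes, 7 rose and 3 fell (28.6% called, against 10.5% of all genes), with a median of 0.16. Vegfa, the endothelial growth factor, fell from 741 and 726 to 506 and 514 (log2 difference -0.52, SE 0.09, adjusted p = 0.00955), below 827 and 782 in shRenilla. Tgfa, an EGF receptor ligand, fell from 2272 and 2359.8 to 1558 and 1572 (log2 difference -0.56, SE 0.07, adjusted p = 0.00322), and Angpt1, the Tie2 ligand, from 154 and 157 to 78.3 and 90.0 (log2 difference -0.88, SE 0.16, adjusted p = 0.0125). Their control values were 3741 and 3676 for Tgfa and 297 and 306 for Angpt1, so both fell in the order of Slpi. Pdgfb rose from 368 and 419 to 573 and 633 (log2 difference 0.61, SE 0.11, adjusted p = 0.011), with 278 and 272 in shRenilla. The angiogenic counts were 3 higher and 3 lower without shSlpi-1 library A, 3 and 3 without shSlpi-1 B, 12 and 4 without shSlpi-2 A and 10 and 4 without shSlpi-2 B. Of 17 Notch pathway genes, 2 rose and 0 fell (median 0.19; 11.8% called, close to the 10.5% of all genes), with 2 higher and 0 lower without shSlpi-1 library A, 1 and 0 without shSlpi-1 B, 5 and 1 without shSlpi-2 A and 3 and 0 without shSlpi-2 B. Jag1, a Notch ligand, read 704 and 669 in shRenilla, 564 and 546 with shSlpi-1 and 920.2 and 979 with shSlpi-2 (log2 difference 0.77, SE 0.08, adjusted p = 0.00188), and Notch1 rose by 0.44 (adjusted p = 0.0255; 0.210 without shSlpi-1 library B).

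Hypoxia and glycolysis genes were the list with the largest share of falls. Of 35 tested, 11 fell and 1 rose, 34.3% called against 10.5% of all genes, and the median was -0.17. Egln3, the prolyl hydroxylase PHD3, read 3050.0 and 3124 in shRenilla, 2464 and 2558 with shSlpi-1 and 1645 and 1526 with shSlpi-2 (log2 difference -0.66, SE 0.07, adjusted p = 0.00188). Bnip3, a mitophagy receptor, read 943 and 951, 958 and 959 and 628 and 655 (log2 difference -0.58, SE 0.08, adjusted p = 0.006), and Ndrg1 3785 and 3746, 3538 and 3547 and 2667 and 2578 (log2 difference -0.43, SE 0.06, adjusted p = 0.00763). Bnip3l fell by 0.43 on the log2 scale (adjusted p = 0.00733; 0.0588 without shSlpi-1 library B). Against shRenilla the list held 7 rises and 7 falls for shSlpi-1 and 5 rises and 13 falls for shSlpi-2. Between hairpins the counts were 1 higher and 7 lower without shSlpi-1 library A, 0 and 6 without shSlpi-1 B, 4 and 15 without shSlpi-2 A and 5 and 15 without shSlpi-2 B. The glycolytic enzyme genes Pkm and Ldha were not called.

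Most lipid synthesis genes that were called rose. Of 42 tested in cholesterol and fatty acid synthesis, 9 rose and 1 fell (23.8% called, against 10.5% of all genes), with a median of 0.08. Fads1, a fatty acid desaturase, read 2964 and 2948 with shSlpi-1 and 4083 and 3874 with shSlpi-2 (log2 0.43, adjusted p = 0.00781), and Dhcr7 rose by 0.44 (adjusted p = 0.0109; 0.0672 without shSlpi-1 library B). Against shRenilla 27 of 42 rose for shSlpi-1 and 28 of 42 for shSlpi-2, with 0 falls for either hairpin. The counts between hairpins were 3 higher and 0 lower without shSlpi-1 library A, 2 and 0 without shSlpi-1 B, 15 and 2 without shSlpi-2 A and 14 and 2 without shSlpi-2 B.

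Antioxidant genes of the Nrf2 programme held 2 rises and 5 falls among 35 tested (20% called, against 10.5% of all genes; median -0.01). The majority of falls turned without shSlpi-2 library A: the counts were 1 higher and 3 lower without shSlpi-1 library A, 0 and 1 without shSlpi-1 B, 7 and 6 without shSlpi-2 A and 4 and 11 without shSlpi-2 B. Gsta4, a glutathione transferase for lipid aldehydes, read 1375 and 1283 in shRenilla, 923 and 980.1 with shSlpi-1 and 644 and 597 with shSlpi-2 (log2 difference -0.62, SE 0.09, adjusted p = 0.006). Gclm and Gclc, the subunits that make glutathione's precursor, fell by 0.41 and 0.36 on the log2 scale, and Nqo1 by 0.59. Without shSlpi-1 library B these 3 were not called (adjusted p from 0.0852 to 0.256), and without shSlpi-1 library A Nqo1 was not called (0.0803). Chaperones of the endoplasmic reticulum held 5 rises and 1 fall among 32 (18.8% called, median 0.16), led by Calr, calreticulin, at 4316 and 4289.9 with shSlpi-1 and 6043 and 5625 with shSlpi-2 (log2 difference 0.44, SE 0.07, adjusted p = 0.00773). The counts were 2 higher and 0 lower without shSlpi-1 library A, 2 and 0 without shSlpi-1 B, 9 and 3 without shSlpi-2 A and 16 and 3 without shSlpi-2 B. Of 42 Atf4 targets, 2 rose (4.76% called; 1 higher and 0 lower without shSlpi-1 library A, 1 and 0 without shSlpi-1 B, 7 and 0 without shSlpi-2 A and 8 and 1 without shSlpi-2 B), Ddit4 (0.67) and Slc7a5 (0.31; adjusted p = 0.0658 without shSlpi-1 library A and 0.372 without B).

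Inflammatory genes gave no common direction. Of 36 NF-kB targets and cytokines, 2 rose and 4 fell (16.7% called, against 10.5% of all genes), with a median of 0.10. The majority of falls turned without shSlpi-1 library A and also without shSlpi-2 library A. The list median was 0.07 without shSlpi-1 library A, 0.11 without shSlpi-1 B, 0.09 without shSlpi-2 A and 0.03 without shSlpi-2 B. Beside Tslp, Ccl2, the monocyte chemokine, fell from 379 and 336 to 146 and 221 (log2 difference -0.99, SE 0.18, adjusted p = 0.0135) and Csf1, the macrophage growth factor, from 6218 and 6019 to 4429 and 4824 (log2 difference -0.40, SE 0.07, adjusted p = 0.0109; adjusted p = 0.0603 without shSlpi-1 library A). Cxcl16, a membrane-bound chemokine, rose from 907 and 803 to 1202 and 1244 (log2 difference 0.52, SE 0.09, adjusted p = 0.0101; 0.0614 without shSlpi-1 library B). Of 47 interferon-stimulated genes, 2 rose and 1 fell (6.38% called, median 0.04), with Tapbp, of antigen loading, at 0.56 (adjusted p = 0.00724); the counts were 1 higher and 0 lower without shSlpi-1 library A, 1 and 0 without shSlpi-1 B, 5 and 3 without shSlpi-2 A and 4 and 5 without shSlpi-2 B. Of 17 genes for small RNA processing, 0 rose and 1 fell, 5.88% called against 10.5% of all genes. The fall was in Ago3 (-0.27, adjusted p = 0.0431), and its call was lost without shSlpi-1 library A (log2 -0.29) or B (-0.25). Dicer1 and Ago2 were not called.

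Histone genes were higher with shSlpi-2 in all 56 tested, and their median was 0.51. Of these, 13 were called (23.2%, against 10.5% of all genes). Against shRenilla the list's median was -0.44 for shSlpi-1, with 44 of 56 called lower, and 0.04 for shSlpi-2, with 1 called higher and 0 lower. Hist1h2ak, an H2A gene, read 1049 and 1176 in shRenilla, 923 and 722 with shSlpi-1 and 1317 and 1563 with shSlpi-2 (log2 difference 0.81, SE 0.12, adjusted p = 0.00773). Clustered histone genes are near copies of each other and their reads can be shared among them, so the 56 are not separate measurements. The count called was 6 when scaled to reads outside structural RNAs, 31 without shSlpi-1 library A, 6 without B, 53 without shSlpi-2 library A and 16 without B.

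Ribosomal protein and oxidative phosphorylation genes showed the spread between the 2 shSlpi-2 libraries. Of 78 ribosomal protein genes, 2 rose and 0 fell (2.56% called, below the 10.5% of all genes). Rps14 rose by 0.61, and the list median was 0.13. The ribosomal counts were 8 higher and 0 lower without shSlpi-1 library A, 1 and 0 without shSlpi-1 B, 57 and 0 without shSlpi-2 A and 3 and 24 without shSlpi-2 B. With shSlpi-2 library B alone the median was 0.34 and 57 were higher, and with library A alone it was -0.06, with 3 higher and 24 lower. Of 87 nuclear genes for oxidative phosphorylation, 10 rose and 0 fell (11.5% called, close to the 10.5% of all genes, median 0.19). When scaled to reads outside structural RNAs, 6 were called higher. The median was 0.30 with shSlpi-2 library B alone and 0.02 with shSlpi-2 library A alone. Without shSlpi-1 library B it was 0.14. The spread ran along gene length: with genes split by exon length into 5 classes, the median of shSlpi-2 library A minus library B went from -0.12 in the shortest class to 0.06 in the longest. The median difference between hairpins went from 0.07 in the shortest class, with 147 higher and 70 lower, to -0.04 in the longest, with 102 higher and 181 lower. The part of length in the list results was not tested.

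Lists of cell growth and signalling held calls in both directions, apart from the proteasome subunits, where only rises were called. Of all genes tested 10.5% were called, and the cell cycle and proteasome lists lay near that share. Of 64 cell cycle genes 2 rose and 4 fell (9.38% called, median -0.03), and with all 10 libraries in the fit 16 rose and 18 fell. The cell cycle counts were 2 higher and 0 lower without shSlpi-1 library A, 0 and 0 without shSlpi-1 B, 12 and 18 without shSlpi-2 A and 15 and 11 without shSlpi-2 B. Among them were Pcna, the replication clamp, at 3836 and 3500.2 with shSlpi-1 and 4841 and 4822 with shSlpi-2 (log2 0.40, adjusted p = 0.0116; 0.156 without shSlpi-1 library B) and Mki67, which was not called. Of 23 p53 targets 2 rose and 2 fell (17.4% called, median 0.08; 2 higher and 1 lower without shSlpi-1 library A, 1 and 0 without shSlpi-1 B, 4 and 4 without shSlpi-2 A and 4 and 3 without shSlpi-2 B), among them Mdm2 at -0.28 (adjusted p = 0.0306; 0.167 and 0.322 without shSlpi-1 library A or B). Of 42 proteasome subunits 4 rose and 0 fell (9.52% called, median 0.12), with 2 higher under quantile normalization, and 1 higher and 0 lower without shSlpi-1 library A, 0 and 0 without shSlpi-1 B, 15 and 4 without shSlpi-2 A and 10 and 2 without shSlpi-2 B. Targets of YAP and TGF-beta held 4 rises and 2 falls among 31 (19.4% called), against 6 and 7 with all 10 libraries, 4 and 5 under quantile normalization and 4 and 4 when scaled to reads outside structural RNAs. Their counts were 2 higher and 0 lower without shSlpi-1 library A, 1 and 0 without shSlpi-1 B, 9 and 7 without shSlpi-2 A and 6 and 5 without shSlpi-2 B, with Id3 at 0.67 and Id2 at -0.60 (Id2 adjusted p = 0.131 and 0.104 without shSlpi-1 library A or B). Immediate early and ERK target genes held 4 rises and 3 falls among 45 (15.6% called; 3 higher and 1 lower without shSlpi-1 library A, 0 and 1 without shSlpi-1 B, 14 and 4 without shSlpi-2 A and 7 and 8 without shSlpi-2 B). Junb, an AP-1 subunit gene, rose by 0.55 (adjusted p = 0.03; 0.122 without shSlpi-1 library B). The medians of these last lists, both 0.01, changed sign with the scaling. Over all lists, leaving out shSlpi-2 library A raised the count of calls in 30 of 30 and leaving out B raised it in 29.

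**Figure D5:**
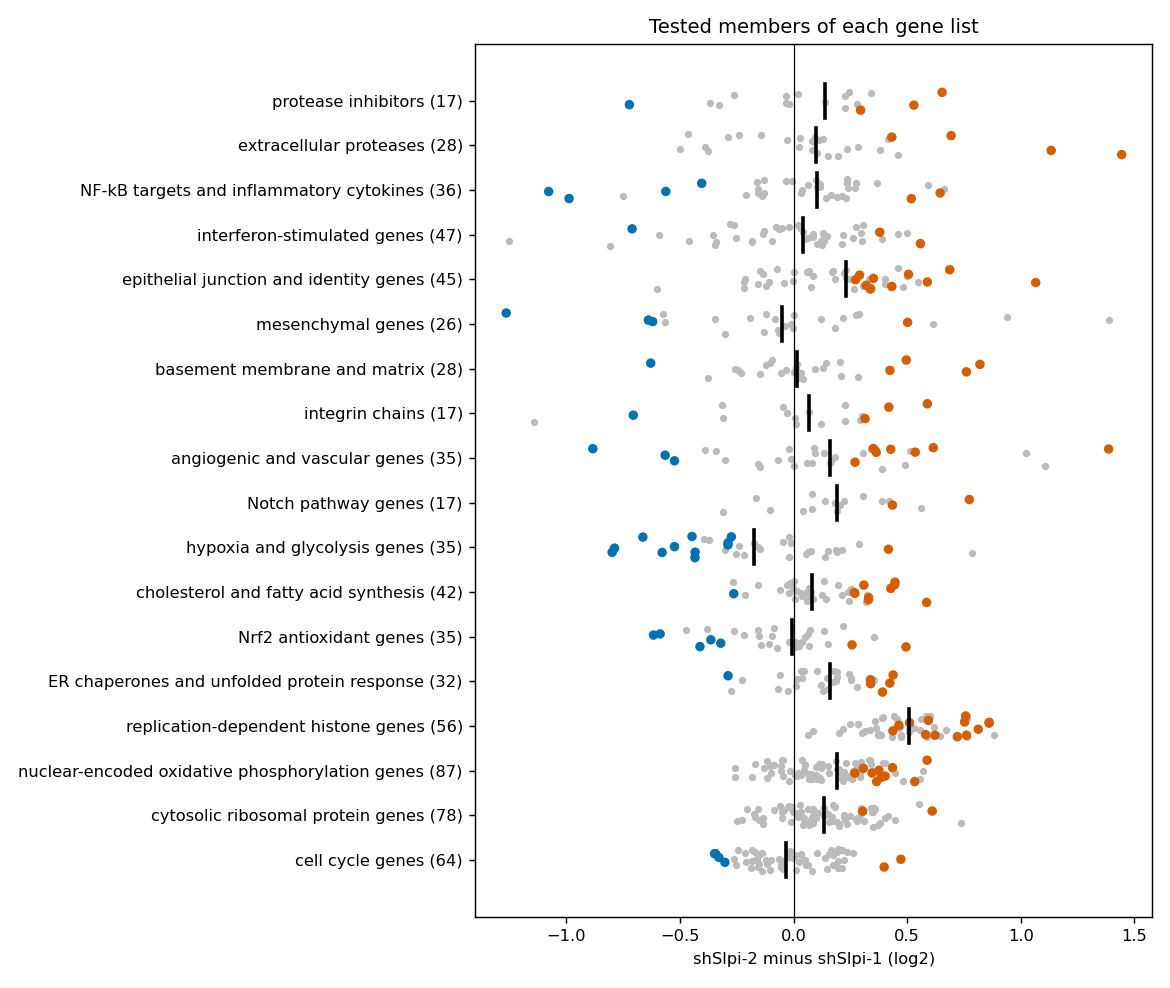
Log2 difference (shSlpi-2 minus shSlpi-1) of each tested member of 18 gene lists, with the number tested in brackets. Coloured points were called (orange higher, blue lower), grey points were not, and the black bar is the list's median, which lies at 0.51 for histone genes, 0.23 for epithelial genes and -0.17 for hypoxia and glycolysis genes.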

How the data were processed

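The RNA of each library was total RNA, amplified to cDNA with a NuGEN kit and sequenced on an Illumina instrument, per the labels' protocols. Bowtie2, HTSeq, DESeq and the build mm10 are named in the submitters' processing notes; the sources used here give neither their versions nor whether reads were counted by strand. The deposited table holds log2 values of the variance-stabilized form, with a floor of 6.733 in every column for entries with 0 reads. Inverting that form gave normalized counts, and these were whole multiples of 1 read's worth (tolerance 0.01) in 100.0% of values of every library, which recovered the read totals. The planned test was run on these inverted values. Of 23479 entries, 1238 held 0 reads in all libraries, 27 carried names turned into dates, and 21848 matched a GENCODE M21 gene (GRCm38). A 0 allows up to 3 reads, for counting error only.

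Each comparison was fitted on its own 4 libraries with limma 3.58.1 in R 4.3.3 (lmFit, eBayes with a trend) on log2(normalized reads + 1), for genes with a mean of at least 10, with two-sided p-values, Benjamini-Hochberg adjustment over all tested genes and calls at 0.05. Fold changes on this scale understate those of low genes. The procedure was tested on simulated data with the same spread in both groups, while the shSlpi-2 libraries here lay further apart than the shSlpi-1 libraries. That simulation cannot show how the procedure performs under such unequal spread. Genes named are Slpi, the 3 markers given for these lines (Mmp9, Map1a, Fendrr), the 12 largest rises and falls among called genes with a mean of at least 50, no overlap between hairpins and a proper name (563 and 586 genes qualified), and up to 4 called members per list. The members, the 32 gene lists and the tests were chosen with earlier results of these data known. The list of mitochondrially encoded genes found 0 entries in the table. No set test was run, and lists are given as counts and medians. Date names entered the tests and are not named. Some genes that the rule names are not reported here. Alternatives tried were the libraries in the fit, weights, scale, pseudocount, filter, scaling, a replicate block and leaving out each library.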

Additional observations from a re-analysis of the deposited data

Results flagged for a closer look

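For 24 of the genes that the naming rule takes or that were singled out, both libraries of shSlpi-1 lay on 1 side of both shRenilla libraries and both libraries of shSlpi-2 on the other side, and the difference between the hairpins was called by limma. Most of the genes looked at were picked for a difference between the hairpins, and the same count over all genes was not made. By group means alone, the control lay between the hairpins in 39.3% of the 1311 called genes and 26.4% of all tested. The values are log2 differences, shSlpi-2 minus shSlpi-1. Below the control with shSlpi-1 and above it with shSlpi-2 were Mmp9 (1.44), Dmd (1.36), Dcun1d5 (1.15), Parp14 (0.38), Tnc (0.50), Jag1 (0.77), Pcna (0.40), Dusp7 (0.37), Hist1h2ak (0.81), Hist1h2ae (0.86), Ndufa13 (0.53), Sdha (0.31), Map7d1 (0.50) and Elovl5 (0.31). Above the control with shSlpi-1 and below it with shSlpi-2 were Fendrr (-1.41), Slmo1 (-1.25), Ttc9 (-1.25), Ypel4 (-1.19), Plgrkt (-1.14), Oas3 (-0.71), Ago3 (-0.27), Polk (-0.33), Bnip3 (-0.58) and Neat1 (-0.82). Each group has 2 libraries, too few to look for a single library far from the rest, and in some of these genes (Ttc9, Bnip3 and Elovl5 among them) the distance of shSlpi-1 from the control was small and not called. The call between hairpins itself ended for Ago3, Dusp7, Elovl5, Oas3, Parp14, Polk and Sdha without shSlpi-1 library A (adjusted p from 0.051 to 0.235), for these and Pcna without shSlpi-1 library B (from 0.109 to 0.374), for Oas3 without shSlpi-2 library A (0.0501), and for Oas3 and Parp14 under quantile normalization (0.0603 and 0.0537).

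Olfactory and vomeronasal receptor entries, a family that the report's gene lists do not use, held more reads in the Slpi hairpin libraries than the 23.7 and 24.9 RPM of the control: 45.7 and 40.2 in shSlpi-1 libraries A and B, and 78.9 and 92.4 in shSlpi-2 libraries A and B. Among the Serpine2 hairpin libraries the values were 39.3 and 39.4 RPM with shSerpine2-1, close to shSlpi-1, and 13.6 and 14.3 with shSerpine2-2, below the control. Levels above the control were thus not limited to the Slpi hairpins. The source of these reads was not tested.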

How the results depend on the processing

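The 1311 calls between hairpins (617 higher, 694 lower) became 3222 (1543 and 1679) with all 10 libraries in the fit, 2085 (1020 and 1065) with a weight per group, and 0 (0 and 0) without a low filter, where Slpi kept its difference of -1.09 without a call (adjusted p = 0.120, range over its alternatives 2.25e-08 to 0.120) and limma called 233 genes for shSlpi-1 against shRenilla and 3397 (2254 higher, 1143 lower, beside 1983 and 2044 with the filter) for shSlpi-2 against shRenilla. Leaving out 1 library gave 391 (without shSlpi-1 library B) to 3678 calls, 186 to 1869 higher and 205 to 1809 lower. Against shRenilla the same step gave 1889 (without shRenilla library B) to 2672 for shSlpi-1 and 2073 to 5574 for shSlpi-2. Of the 1311, 1300 kept their call and direction with all 10 libraries, 546 and 371 without shSlpi-1 library A or B, and 1295 and 1282 without shSlpi-2 library A or B. The deposited log2 scale, voom, a pseudocount of 8, a filter at 50, quantile normalization and scaling to reads outside structural RNAs gave 1247 to 1322 calls. Under quantile normalization Rn45s and Malat1, the highest entries in each of the 4 libraries, read 0.00 and 0.00. Of the 24 largest differences, 23 were still called without shSlpi-1 library B (Mmp13 was not) and 24 without any other library. No shared difference between letters A and B was seen: the A minus B differences of shSlpi-1 and shSlpi-2 correlated at -0.0679 across genes. A correlation of this kind cannot show how the libraries were paired in culture or preparation. With the letter as a replicate block 1635 genes were called, 1217 of them among the 1311 in the same direction. Where 1 library is left alone in a group, it is assumed to vary like the other group. Below 50 normalized reads, where depth limits precision most, 66 of 1940 genes were called.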
